A study of Mus musculus with 4 samples.

Results

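The interleukin 12 family and its receptors were followed across the gated cell classes of 2 mouse spleens that held a B-cell lymphoma. The 8 member genes, of 32285 features in each count table, were chosen by name: the subunits Ebi3, Il27, Il12a, Il12b and Il23a, and the receptor chains Il12rb1, Il12rb2 and Il27ra. All 8 were found in both libraries. The study compared 1 female pBIC10 mouse with 1 female pBIC mouse. The alleles behind these genotype names were not spelled out in the labels, and the age of the mice was not given there. Spleen cells were sorted and mixed to 20% live GFP+ lymphoma cells and 80% live GFP- cells of the tumour surroundings, then made into a droplet 5′ gene expression library and a T cell receptor library per mouse. Il10, the cytokine that the study's title names, was at 0.524 UMIs per 1000000 UMIs of the class (CPM; a UMI, or unique molecular identifier, counts each captured transcript once) in the B gate of the pBIC10 library and at 31.6 CPM in that of the pBIC library.

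Interleukin 12 family cytokines are dimers of an alpha and a beta subunit that are each encoded by a separate gene. IL-12 joins p35 (Il12a) with p40 (Il12b), IL-23 joins p19 (Il23a) with p40, IL-27 joins p28 (Il27) with EBI3, and IL-35 is described as p35 with EBI3. IL-12 and IL-23 are best known from dendritic cells and macrophages and drive type 1 and type 17 T cell responses. IL-27 limits T cell inflammation and induces interleukin 10, and IL-35 has been described in regulatory T and B cells. IL-12 signals through IL-12Rβ1 (Il12rb1) with IL-12Rβ2 (Il12rb2), IL-23 through IL-12Rβ1 with IL-23R, and IL-27 through IL-27Rα (Il27ra) with gp130 (Il6st). Transcripts of 2 subunits in a cell are no measure of the assembled dimer.

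Each cell class was a gate on UMIs, so a gate gene is no result here. The B gate asked for at least 3 UMIs of Cd79a and Cd79b, and the macrophage gate for Csf1r with at least 5 UMIs of Lyz2. The dendritic gate asked for Flt3 or Zbtb46 without Cd79a. The CD8 T and CD4 T gates asked for a T cell receptor beta chain with Cd8a or Cd8b1, or with Cd4 and neither of these. The Ig-low lymphoma-like gate was set in the pBIC10 library alone and asked for Gstt1 without Cd3e and outside the B gate. Cells that met several gates, 996 in the pBIC10 library and 856 in the pBIC library, were left out of the class values.

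The classes held 2452 pBIC10 and 3385 pBIC B cells, 926 pBIC10 Ig-low cells, 1986 pBIC10 and 560 pBIC macrophages, 239 pBIC10 and 302 pBIC cells of the dendritic gate, 2599 pBIC10 and 5846 pBIC CD8 T cells, and 253 pBIC10 and 886 pBIC CD4 T cells. After filtering, 14300 pBIC10 and 17431 pBIC cells remained, from 147884282 pBIC10 and 166941618 pBIC UMIs in all barcodes. The libraries shared 712 barcodes, and leaving out these cells changed the count of members called in CD8 T cells alone, to 5 from 7, where Il12b and Il23a were then not called. Each genotype was 1 mouse with 1 tumour, so genotype, mouse, tumour and library preparation cannot be told apart, and no test of the genotypes was possible. All 95% intervals given here cover counting error only.

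The class labels were set against marker lists. The B and macrophage gates held 10 of 10 of their own markers, and the T cell gates 7 of 7, at 10 CPM or more in both libraries. The B list includes the gate genes Cd79a and Cd79b, the macrophage list Csf1r and Lyz2, and the dendritic list Flt3 and Zbtb46. The gates fixed the presence of these genes, so their part in the counts does not bear on the labels. In the dendritic gate 8 of 10 pBIC10 and 9 of 10 pBIC dendritic markers reached that level, but so did 7 of 7 T cell markers in both libraries, at a summed 708 CPM in pBIC10 and 525 CPM in pBIC. Cd3e, Ncr1 or Klrb1c was present in 67 of 239 pBIC10 and 84 of 302 pBIC cells of this gate. It was therefore a gate of mixed cells, and the levels of Ebi3, Il12b and the receptors are also given without those cells, while the counts of gene lists include them. The Ig-low gate held 10 of 10 B markers at 10 CPM or more, at a summed 445 CPM against 2136 CPM in pBIC10 B cells, and also neutrophil markers at a summed 18715 CPM and macrophage markers at a summed 1362 CPM, with a median of only 2352.5 UMIs per cell. The B marker sums include Cd79a and Cd79b, which the gates themselves kept lower in Ig-low cells than in B cells. As background for free RNA, an erythroid gate of 140 pBIC10 and 328 pBIC cells was used, with median depths of 19914 and 14348 UMIs.

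The promoters of Ebi3 and Il12a are shown because these subunits of the same described dimer stood on opposite sides of the comparison in B cells. The sequences are RefSeq's for build GRCm38.p6, plus strand, 5′ to 3′, from 250 bases before to 50 bases after the transcription start. Ebi3 lies on chromosome 17 (chr17:55952373-55952672), and Il12a has 2 starts on chromosome 3 (chr3:68690394-68690693 and chr3:68691174-68691473). Capitals mark matches to a kappaB-type motif (GGG, 5 bases of any kind, CC) or a PU-box-type motif (GAGGAA), searched on both strands.
Ebi3: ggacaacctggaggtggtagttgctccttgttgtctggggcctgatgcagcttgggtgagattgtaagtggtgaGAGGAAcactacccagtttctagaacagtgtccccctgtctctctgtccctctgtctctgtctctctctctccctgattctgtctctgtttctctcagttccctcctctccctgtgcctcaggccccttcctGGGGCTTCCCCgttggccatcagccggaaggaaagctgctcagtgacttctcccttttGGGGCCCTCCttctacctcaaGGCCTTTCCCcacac
Il12a start 1: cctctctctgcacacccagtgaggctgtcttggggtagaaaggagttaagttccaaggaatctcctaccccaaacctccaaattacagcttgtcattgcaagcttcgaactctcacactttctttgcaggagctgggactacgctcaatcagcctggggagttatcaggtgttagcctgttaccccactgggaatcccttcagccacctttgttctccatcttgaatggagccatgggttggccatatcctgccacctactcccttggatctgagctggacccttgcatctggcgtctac
Il12a start 2: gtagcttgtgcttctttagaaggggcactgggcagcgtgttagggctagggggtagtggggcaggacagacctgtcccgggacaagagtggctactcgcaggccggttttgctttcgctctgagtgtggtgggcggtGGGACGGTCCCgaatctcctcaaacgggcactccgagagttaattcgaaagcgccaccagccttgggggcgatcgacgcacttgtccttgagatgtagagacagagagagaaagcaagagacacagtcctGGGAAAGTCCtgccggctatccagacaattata

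In the Ebi3 promoter, kappaB-type letters began at -44 and -43, which overlap, and at 15 and 36 bases from the start, and the PU-box-type letters began at -176. The Il12a window at start 2 held kappaB-type letters at -113 and -112, which overlap, and at 18, and the window at start 1 held no match. These motifs are common: of 32851 promoters of the same length, 50.8% held the kappaB-type letters and 28.3% the PU-box-type letters. An interferon-stimulated response type motif (TTTC, 2 bases of any kind, TTTC) stood in 3.44% of promoters and a STAT-binding type motif (TTC, 3 bases of any kind, GAA) in 8.30%, and neither was found in these 3 windows. A match is a description of letters and not a binding site.

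**Figure D1:**
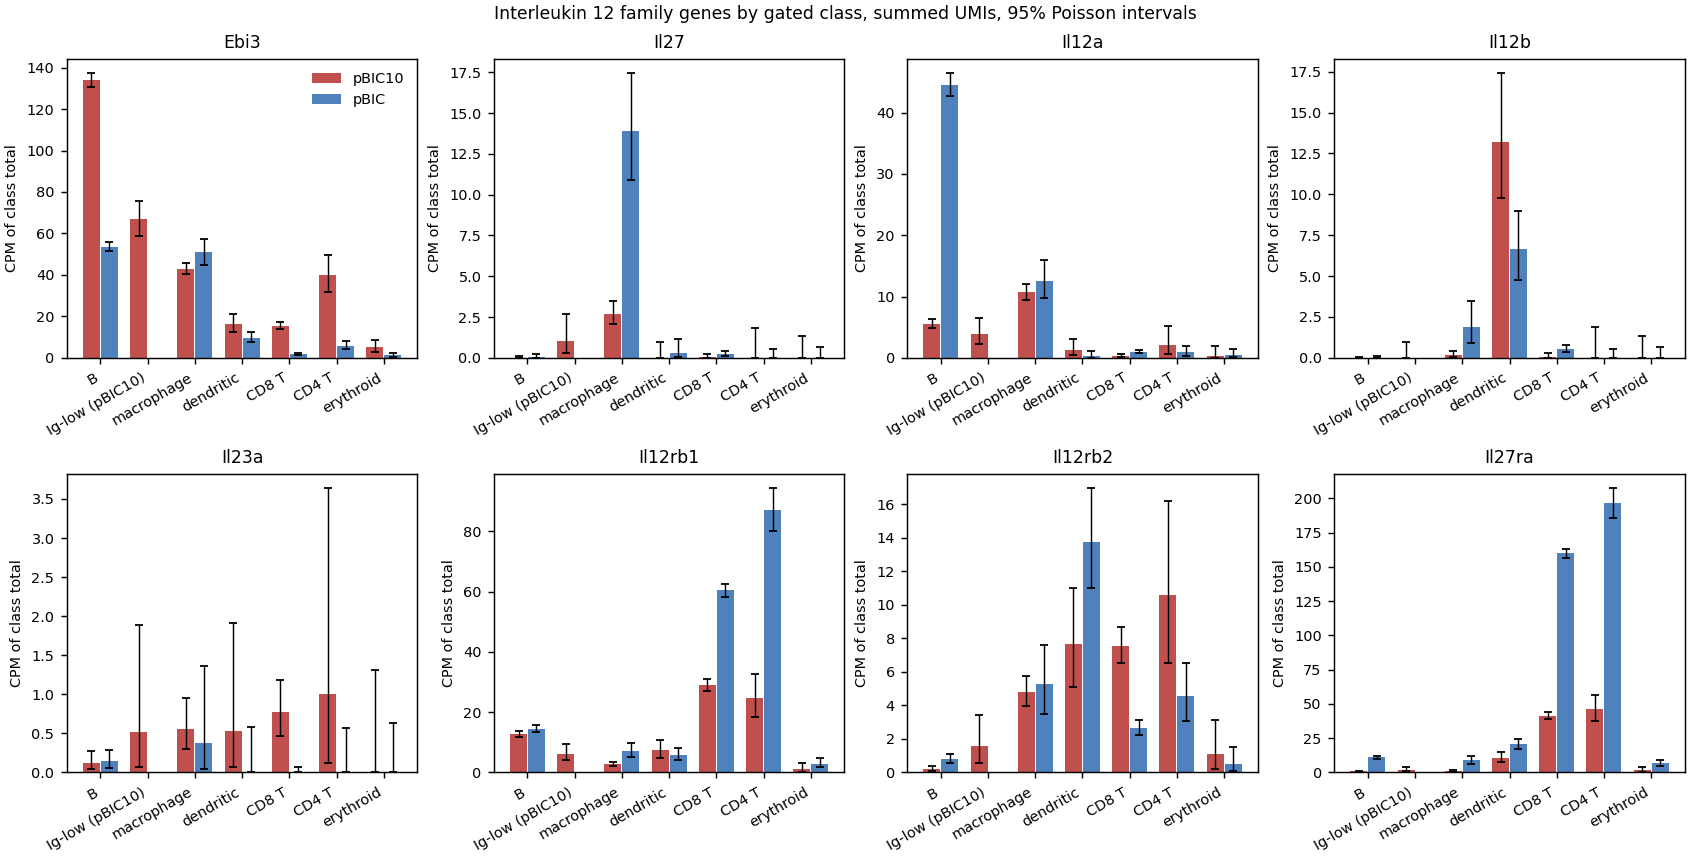
Level of each member gene (CPM of the class's summed UMIs, linear axes from 0, one scale per gene) in the 6 gated classes and the erythroid background gate, with pBIC10 in red and pBIC in blue. Bars are the summed level and lines the 95% Poisson interval, and the Ig-low gate exists in pBIC10 alone. Ebi3 is high in pBIC10 B cells (134 CPM), Il12a in pBIC B cells (44.5 CPM), Il27 in pBIC macrophages (13.9 CPM), Il12b in the dendritic gate, and Il27ra in pBIC T cells (160.0 CPM in CD8 T cells).

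Members of the family differed between the libraries in every class compared. A gene was called where it had at least 20 UMIs over both libraries, differed at least 1.5-fold and had an exact binomial 95% interval that left out no difference. In B cells 1 member was called higher in pBIC10 and 3 lower, of 5 with enough UMIs, where 16.3% of all genes were called higher and 39.5% lower, 55.7% in all. In macrophages 0 were called higher and 3 lower of 6, where 6.43% of genes were called higher and 26.7% lower, 33.1% in all. In the dendritic gate 2 were called higher and 2 lower of 5, where 7.41% of genes were called higher and 20.0% lower, 27.4% in all.

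In CD8 T cells 3 members were called higher in pBIC10 and 4 lower of 7, where 14.8% of genes were called higher and 21.0% lower, 35.8% in all. In CD4 T cells 2 were called higher and 2 lower of 4, where 8.47% of genes were called higher and 17.1% lower, 25.6% in all. In the erythroid gate 1 was called higher and 1 lower of 3, where 9.08% of genes were called higher and 21.8% lower, 30.9% in all. Between 25.6% and 55.7% of all genes passed the same thresholds in these comparisons, so a call says little by itself and the sizes below carry the description. The median gene was lower in pBIC10, with a log2 ratio of -0.38 in B cells, -0.27 in macrophages, -0.19 in the dendritic gate, -0.15 in CD8 T cells and -0.17 in CD4 T cells. TMM scaling, which removes most of that shift, moved the higher share of all calls to 48.5% from 29.2% in B cells, to 48.2% from 19.4% in macrophages, to 48.7% from 27.1% in the dendritic gate, to 54.9% from 41.3% in CD8 T cells and to 52.0% from 33.1% in CD4 T cells. It left the split of members called in each of these 5 classes as given.

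**Figure D2:**
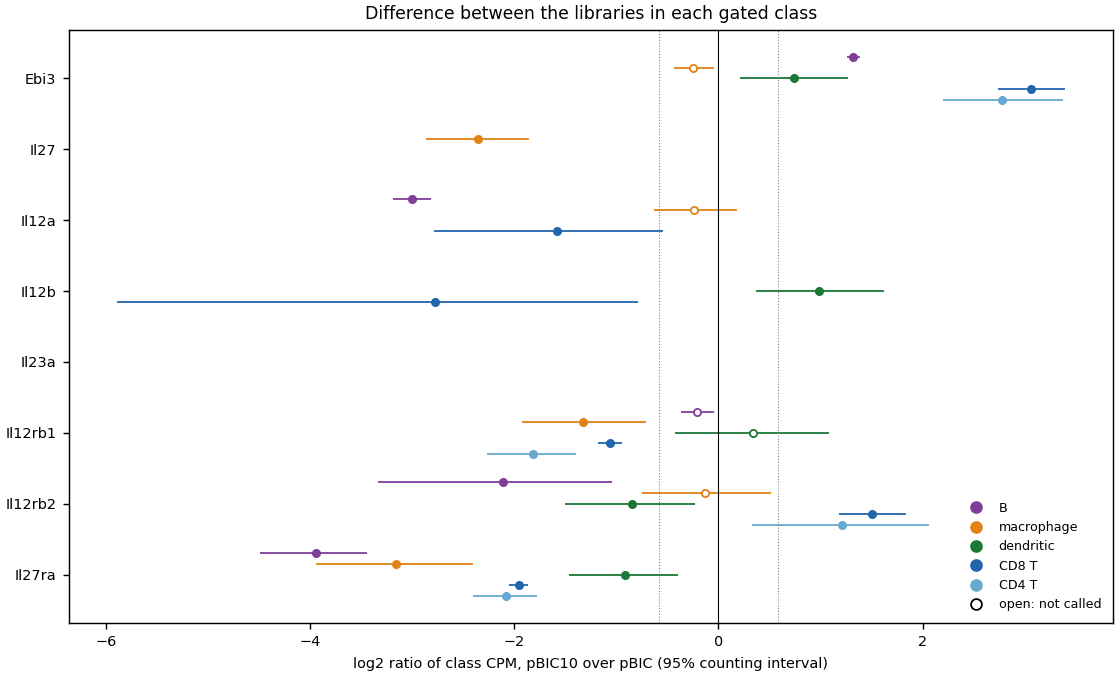
Log2 ratio of class CPM, pBIC10 over pBIC, for each member with at least 20 UMIs and a UMI in both libraries. Points are colored by class, lines are 95% counting intervals, open points were not called, and dotted lines mark 1.5-fold. Ebi3 lies to the right in B (1.32), CD8 T (3.06) and CD4 T cells (2.78), Il27ra to the left in all 5 classes, and Il12rb2 on either side.

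Ebi3 (ENSMUSG00000003206), the beta subunit shared by IL-27 and IL-35, was the member with the most UMIs in B cells. It was at 134 CPM (95% interval 131 to 137; 6388 UMIs) in pBIC10 B cells and at 53.6 CPM (51.6 to 55.7; 2641 UMIs) in pBIC B cells. The pBIC10 level was 2.50-fold higher, a log2 ratio of 1.32 (1.25 to 1.39). At least 1 Ebi3 UMI was found in 63.6% of pBIC10 and 37.0% of pBIC B cells (median depths 15276 and 12928 UMIs), against 7.14% of pBIC10 and 2.13% of pBIC erythroid cells. With every cell thinned to 2000 UMIs the shares were 23.5% of 2368 pBIC10 B cells and 9.81% of 3170 pBIC B cells, with 84 and 215 shallower cells left out. B cells carried 64.7% of the pBIC10 library's Ebi3 UMIs in kept cells and 70.8% of those in the pBIC library.

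The size of the Ebi3 difference varied among subsets of the B gate, and in 1 subset it was not called. In B cells without dividing-cell UMIs (under 2 of Mki67 and Top2a) it was at 196 CPM in pBIC10 and 57.7 CPM in pBIC, a log2 ratio of 1.76 (1.66 to 1.87). In dividing B cells it was at 91.9 CPM in pBIC10 and 51.7 CPM in pBIC, a log2 ratio of 0.83 (0.74 to 0.92). Within the pBIC10 library the log2 ratio of dividing over other B cells was -1.09 (-1.16 to -1.02), and within the pBIC library -0.16 (-0.28 to -0.04), under 1.5-fold. Among B cells with at least 10 UMIs of the light chain V segment that dominated their library, Ebi3 was at 135 CPM in pBIC10 and 55.5 CPM in pBIC. Among B cells with no UMI of Cd3e, Cd3g or Trac it was at 103 CPM in pBIC10 and 47.0 CPM in pBIC.

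The exception was B cells with an Il10 UMI, of which there were 25 in pBIC10 and 879 in pBIC. Il10 in pBIC10 was at 0.524 CPM in the B gate, 0.357 CPM (1 UMI) in the erythroid gate and 31.9 CPM in CD8 T cells. The Il10 UMIs of these 25 pBIC10 cells thus cannot be told from free RNA, and no Il10-producing subset is read from them. In B cells with an Il10 UMI, Ebi3 was at 53.3 CPM (24 UMIs) in pBIC10 and 65.3 CPM (1155 UMIs) in pBIC, a log2 ratio of -0.29 (-0.94 to 0.29). In B cells without an Il10 UMI it was at 135 CPM in pBIC10 and 47.1 CPM in pBIC, a log2 ratio of 1.52 (1.44 to 1.6).

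Among the classes gated in both libraries, Ebi3 was next highest after B cells in macrophages in each. The Ig-low gate, which exists in pBIC10 alone, stood between them there. In pBIC10 the order ran from B (134 CPM) to Ig-low cells (66.8 CPM), macrophages (43.0 CPM), CD4 T cells (39.8 CPM), the dendritic gate (16.4 CPM), CD8 T cells (15.6 CPM) and the erythroid gate (5.0 CPM). The intervals of macrophages and CD4 T cells overlapped, as did those of the dendritic gate and CD8 T cells. In pBIC B cells (53.6 CPM) and macrophages (50.9 CPM) overlapped, followed by the dendritic gate (9.81 CPM) and CD4 T cells (5.80 CPM), which also overlapped, and then CD8 T cells (1.87 CPM), which overlapped the erythroid gate (1.21 CPM). Macrophage Ebi3 was not called, with a log2 ratio of -0.24 (-0.44 to -0.05) that was 0.03 with TMM scaling.

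Ig-low cells of pBIC10 held less Ebi3 than the B cells of the same library. They had 66.8 CPM (255 UMIs) against 134 CPM in B cells, a log2 ratio of -1.0 (-1.19 to -0.82). Il12rb1 was lower by a similar size, at 6.28 CPM in Ig-low cells against 12.6 CPM in B cells (log2 ratio -1.01, -1.66 to -0.42). These were the 2 members called lower of 4 with enough UMIs, and none was called higher. In this comparison 20.3% of all genes were called higher and 8.52% lower, 28.8% in all. Il12a (3.93 CPM in Ig-low cells and 5.56 CPM in B cells) and Il27ra (1.83 CPM in Ig-low cells and 0.713 CPM in B cells, a log2 ratio of 1.36) were not called. With cells that met several gates kept, the Ig-low side had 3160 cells and the B side 2739, and 1920 cells stood on both sides. Ebi3 was then at -0.14, Il12rb1 at -0.18 and Il27ra at -1.56 (-2.18 to -0.97). Neither Ebi3 nor Il12rb1 was then called, and Il27ra was called lower. Cells on both sides draw a ratio towards no difference, so the Ebi3 and Il12rb1 values do not test their calls. That does not account for the change of sign of Il27ra, whose source was not tested.

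T cells of the pBIC10 library held more Ebi3 UMIs than those of the pBIC library. CD8 T cells had 15.6 CPM (406 UMIs) in pBIC10 and 1.87 CPM (96 UMIs) in pBIC, a log2 ratio of 3.06 (2.74 to 3.40). CD4 T cells had 39.8 CPM (79 UMIs) in pBIC10 and 5.80 CPM (38 UMIs) in pBIC, a log2 ratio of 2.78 (2.20 to 3.38). Among CD8 T cells 11.8% in pBIC10 and 1.49% in pBIC had a UMI, at median depths of 7271 and 6599.5 UMIs, and at 2000 UMIs per cell the shares were 2.86% and 0.416%. Erythroid cells at that depth had shares of 1.74% in pBIC10 and 0.351% in pBIC, on 2 pBIC10 cells and 1 pBIC cell.

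The erythroid gate, the free-RNA background, also held more Ebi3 in pBIC10. It had 5.0 CPM (14 UMIs) in pBIC10 and 1.21 CPM (7 UMIs) in pBIC, a log2 ratio of 2.05 (0.64 to 3.60). Over this background, pBIC10 CD8 T cells were higher by a log2 ratio of 1.64 (0.88 to 2.52), and pBIC CD8 T cells were not called, at 0.63 (-0.47 to 1.98). Cd79a and Cd79b moved the other way, at a summed 28.8 CPM in pBIC10 and 51.0 CPM in pBIC CD8 T cells. Per 100 UMIs of Cd79a and Cd79b, pBIC10 had 54.1 Ebi3 UMIs in CD8 T cells and 40.0 in the erythroid gate. The pBIC values were 3.67 in CD8 T cells and 3.66 in the erythroid gate. CD4 T cells stood higher, at 139 in pBIC10 and 10.6 in pBIC. How much of the Ebi3 in T cells was free RNA was not tested. In CD8 T cells with no UMI of Cd79a or Cd79b, Ebi3 was at 15.1 CPM in pBIC10 and 1.99 CPM in pBIC, and in such CD4 T cells at 43.1 CPM in pBIC10 and 5.27 CPM in pBIC. Of the other lists, 10 macrophage markers summed to 267 CPM in pBIC10 and 148 CPM in pBIC CD8 T cells, and 10 dendritic markers to 158 CPM in pBIC10 and 75.8 CPM in pBIC, and their part in the result was not tested. Ebi3 in the dendritic gate was at 16.4 CPM in pBIC10 and 9.81 CPM in pBIC (log2 ratio 0.74, 0.21 to 1.27), which was called. Without cells holding Cd3e, Ncr1 or Klrb1c it was at 14.7 CPM in pBIC10 and 12.2 CPM in pBIC, not called. With cells that met several gates kept, the CD8 T log2 ratio was 2.09 in place of 3.06, and the CD4 T log2 ratio 1.91 in place of 2.78.

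Il12a (ENSMUSG00000027776), the p35 subunit, stood on the opposite side to Ebi3 in B cells. It was at 5.56 CPM (4.91 to 6.27; 265 UMIs) in pBIC10 B cells and at 44.5 CPM (42.7 to 46.4; 2192 UMIs) in pBIC B cells. The log2 ratio was -3.00 (-3.19 to -2.82), or 8.01-fold lower in pBIC10. A UMI was present in 8.36% of pBIC10 and 36% of pBIC B cells, and in 0.714% of pBIC10 and 0.610% of pBIC erythroid cells. At 2000 UMIs per cell the shares were 0.929% in pBIC10 and 8.68% in pBIC.

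Il12a was called lower in each of the following B cell subsets. Dividing B cells had 3.53 CPM in pBIC10 and 38.6 CPM in pBIC, and the others 8.53 CPM in pBIC10 and 57.0 CPM in pBIC. B cells with at least 10 UMIs of the library's dominant light chain V segment had 5.40 CPM in pBIC10 and 45.4 CPM in pBIC (log2 ratio -3.07). Within pBIC, B cells with an Il10 UMI had 52.9 CPM of Il12a and those without had 39.8 CPM, under 1.5-fold apart (log2 ratio 0.41, 0.29 to 0.53). Ebi3 in the same pBIC cells was at 65.3 CPM with an Il10 UMI and 47.1 CPM without (log2 ratio 0.47, 0.36 to 0.59), also under 1.5-fold.

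Outside the B gate, Il12a was highest in macrophages and was not called there. Macrophages had 10.7 CPM (248 UMIs) in pBIC10 and 12.6 CPM (67 UMIs) in pBIC, a log2 ratio of -0.23 (-0.63 to 0.18). Macrophages were thus the highest class for Il12a in pBIC10, above B cells, and were below B cells in pBIC. CD8 T cells had 0.345 CPM in pBIC10 and 1.03 CPM in pBIC, which was called lower (log2 ratio -1.58) but was not above the erythroid gate in either library, at 0.357 CPM in pBIC10 and 0.519 CPM in pBIC.

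Il12a and Ebi3 UMIs were found together in fewer pBIC10 than pBIC B cells. Both were present in 167 of 2452 pBIC10 B cells (6.81%) and in 577 of 3385 pBIC B cells (17.0%). Of the Il12a-bearing B cells, 81.5% in pBIC10 and 47.3% in pBIC also held Ebi3, against 63.6% in pBIC10 and 37.0% in pBIC of all B cells. Deeper cells are more likely to show both, and at 5000 UMIs per cell 26 pBIC10 (1.29%) and 106 pBIC B cells (3.85%) held both. Il12a with Il12b, the IL-12 pair, was found in 0 B cells of either library. In macrophages Il12a and Ebi3 were together in 76 pBIC10 cells (3.83%) and 22 pBIC cells (3.93%).

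**Figure D3:**
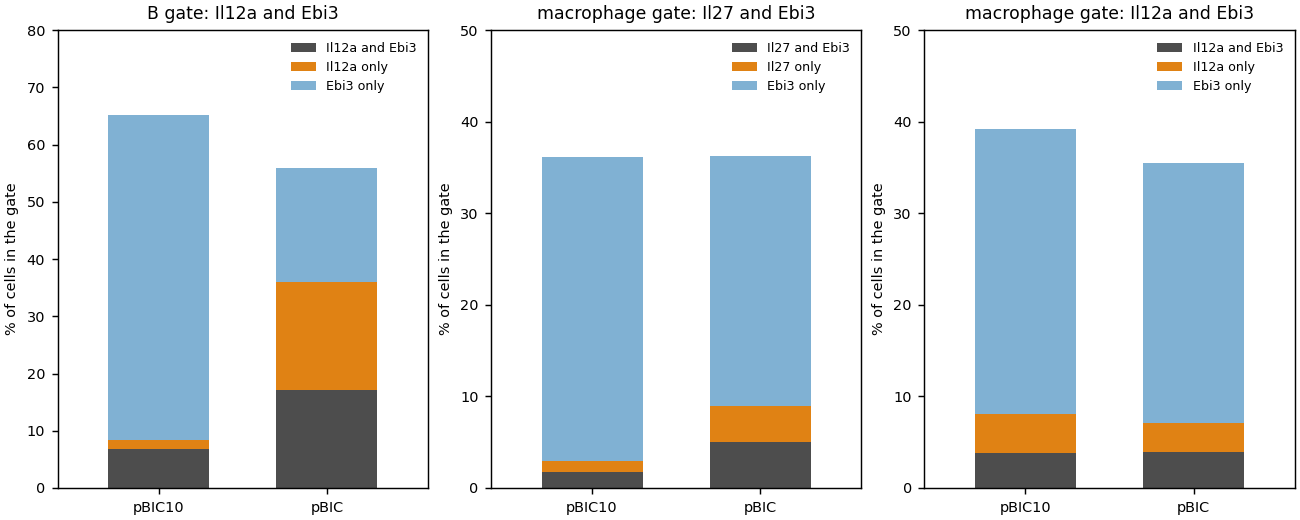
Share of cells in the B gate and the macrophage gate with a UMI of both subunits of a described dimer (dark), of the alpha subunit only (orange) or of Ebi3 only (blue), for pBIC10 on the left and pBIC on the right of each panel. In B cells 6.81% in pBIC10 and 17.0% in pBIC held Il12a with Ebi3, while Ebi3 without Il12a made up most of the pBIC10 bar. Shares are not thinned to a common depth.

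Il27 (ENSMUSG00000044701), the p28 subunit, was highest in macrophages among the gated classes of both libraries and was lower in pBIC10. Macrophages had 2.72 CPM (2.09 to 3.48; 63 UMIs) in pBIC10 and 13.9 CPM (10.9 to 17.4; 74 UMIs) in pBIC. The log2 ratio was -2.35 (-2.86 to -1.85), or 5.11-fold lower. A UMI was found in 59 of 1986 pBIC10 macrophages (2.97%) and in 50 of 560 pBIC macrophages (8.93%), against 0 of 140 pBIC10 and 0 of 328 pBIC erythroid cells. Those zeros allow shares of up to 2.14% in pBIC10 and 0.915% in pBIC.

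Of 3 named macrophage sub-gates, Ebi3 and Il27 were both highest in patrolling cells, marked by Ace or Treml4. C1q macrophages had at least 5 UMIs of the C1q genes, and Ly6c2 monocytes met neither of these marks. Il27 in patrolling cells was at 4.07 CPM in pBIC10 and 17.7 CPM in pBIC (log2 ratio -2.12, -2.82 to -1.44). In C1q macrophages it was at 1.69 CPM in pBIC10 and 9.46 CPM in pBIC (-2.49, -3.71 to -1.25). In Ly6c2 monocytes it was at 2.81 CPM in pBIC10 and 9.44 CPM in pBIC (-1.75, -3.18 to -0.11). All 3 sub-gates were thus lower in pBIC10, the Ly6c2 monocytes on 16 pBIC10 and 6 pBIC UMIs. Patrolling over C1q cells within a library gave a log2 ratio of 1.27 (0.31 to 2.30) in pBIC10, which was called, and of 0.90 (-0.02 to 1.94) in pBIC, which was not. Patrolling cells and Ly6c2 monocytes were not called apart for Il27 in either library.

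Ebi3 in the same sub-gates was also highest in patrolling cells but was not called between the libraries. It was at 53.8 CPM in pBIC10 and 60.1 CPM in pBIC patrolling cells, at 40.9 CPM in pBIC10 and 34.6 CPM in pBIC Ly6c2 monocytes, and at 33.0 CPM in pBIC10 and 27.6 CPM in pBIC C1q macrophages. Patrolling over C1q cells gave log2 ratios of 0.70 (0.48 to 0.93) in pBIC10 and 1.12 (0.59 to 1.69) in pBIC, both called. In the remaining macrophages Ebi3 was at 50.9 CPM in pBIC10 and 77.6 CPM in pBIC, and Il12a at 17.5 CPM in pBIC10 and 52.4 CPM in pBIC. Both were called lower there.

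**Figure D4:**
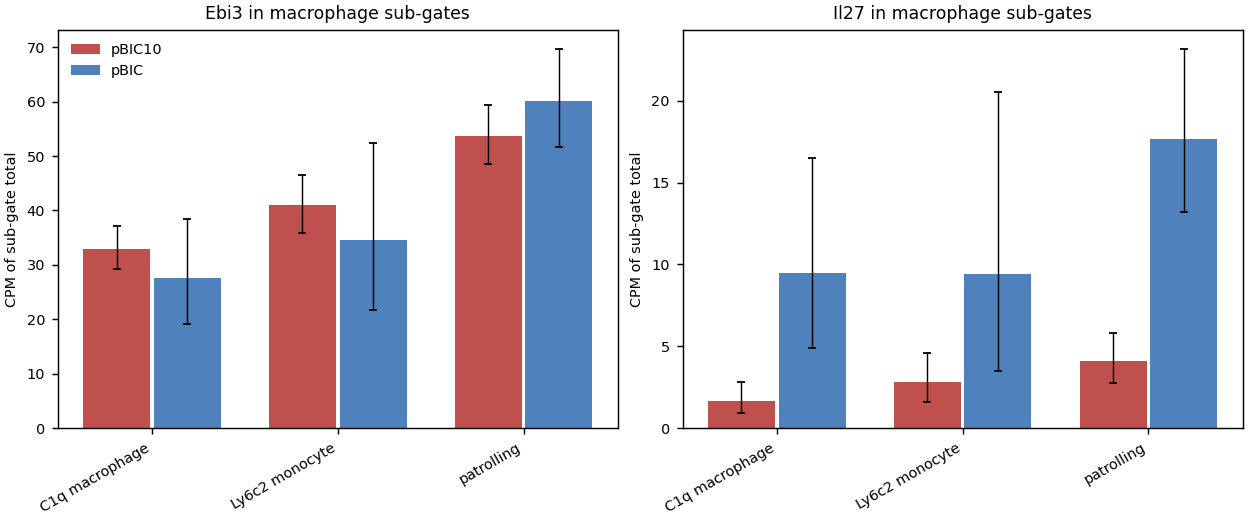
Ebi3 (left) and Il27 (right) in 3 macrophage sub-gates, as CPM of the sub-gate's summed UMIs with 95% Poisson intervals, pBIC10 in red and pBIC in blue. Il27 is below pBIC in all 3 pBIC10 sub-gates (4.07 against 17.7 CPM in patrolling cells), while the Ebi3 bars of the libraries overlap in their intervals.

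Il27 and Ebi3, the IL-27 pair, were found in the same macrophage in 34 of 1986 pBIC10 cells (1.71%) and 28 of 560 pBIC cells (5.0%). Among Il27-bearing macrophages the share with Ebi3 was 57.6% in pBIC10 and 56.0% in pBIC, against 34.9% in pBIC10 and 32.3% in pBIC of all macrophages. These shares are not thinned to a common depth, and deeper cells are more likely to show both. 

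Il12b (ENSMUSG00000004296), the p40 subunit of IL-12 and IL-23, rested on few cells. The dendritic gate had 13.2 CPM (50 UMIs in 6 cells) in pBIC10 and 6.65 CPM (42 UMIs in 4 cells, 30 of them in 1 cell) in pBIC. The log2 ratio of 0.99 (0.37 to 1.62) was called, but with cells that met several gates kept it was -0.51 (-1.06 to 0.03). Without cells holding Cd3e, Ncr1 or Klrb1c it was 1.13 (0.50 to 1.76). Counted over cells, 2.51% of pBIC10 and 1.32% of pBIC cells of the gate held a UMI, with overlapping intervals. No direction between the libraries is read from so few cells.

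Il12b in the other compared classes was at or near 0 in nearly all cells. B cells held 0 UMIs in pBIC10 and 1 in pBIC, and CD4 T and erythroid cells held 0 in both libraries. Macrophages held 4 UMIs in pBIC10 and 10 in pBIC. CD8 T cells held 2 UMIs in 1 pBIC10 cell and 27 UMIs in 1 pBIC cell, so the called log2 ratio of -2.78 was that of a pair of cells. In pBIC, 1 NK cell held 29 UMIs, and cells that met no gate held 70 UMIs, 49 of them in 1 cell.

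Il23a (ENSMUSG00000025383), the p19 subunit of IL-23, was sparse everywhere. CD8 T cells held 20 UMIs in 18 cells (0.768 CPM) in pBIC10 and 0 UMIs in pBIC, at least 13.1-fold higher when 3 counts stand in for the 0 over the pBIC class. The pBIC10 level was below the 1.07 CPM that 3 counts would give in the erythroid gate, which held 0 UMIs. The other rule classes held between 0 and 13 UMIs, and no Il23a-bearing cell held Il12b in any of the 5 compared classes of either library.

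Il12rb1 (ENSMUSG00000000791), the receptor chain shared by IL-12 and IL-23, was highest in T cells among the compared classes of both libraries and was lower in pBIC10 T cells. CD8 T cells had 29 CPM (26.9 to 31.1; 755 UMIs) in pBIC10 and 60.4 CPM (58.3 to 62.5; 3101 UMIs) in pBIC, a log2 ratio of -1.06 (-1.18 to -0.94). CD4 T cells had 24.7 CPM (49 UMIs) in pBIC10 and 87.0 CPM (570 UMIs) in pBIC, a log2 ratio of -1.82 (-2.27 to -1.39). The share of CD8 T cells with a UMI was 21.7% in pBIC10 and 36.1% in pBIC, against 2.14% of pBIC10 and 3.96% of pBIC erythroid cells. NK cells, gated on Ncr1 or Klrb1c, were 17 in pBIC10 and 96 in pBIC, too few to compare, and held 38.9 CPM in pBIC10 and 76.7 CPM in pBIC.

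Among the other classes Il12rb1 was highest in B cells, at 12.6 CPM in pBIC10 and 14.6 CPM in pBIC, and was not called (log2 ratio -0.21, -0.36 to -0.05). Macrophages had 2.85 CPM in pBIC10 and 7.13 CPM in pBIC (log2 ratio -1.33, -1.92 to -0.71), and only the pBIC level was above the erythroid gate, which had 1.07 CPM in pBIC10 and 2.94 CPM in pBIC. The dendritic gate had 7.39 CPM in pBIC10 and 5.86 CPM in pBIC, not called, and without cells holding Cd3e, Ncr1 or Klrb1c 1.10 CPM in pBIC10 and 2.53 CPM in pBIC, not called. The intervals of neighbours in the order overlapped for CD8 and CD4 T cells and for the dendritic gate and Ig-low cells in pBIC10, and for macrophages and the dendritic gate in pBIC. In CD8 T cells with a UMI of Tcf7, a gene of stem-like and naive T cells, Il12rb1 was at 11.2 CPM in pBIC10 and 41.3 CPM in pBIC, and in those without it was at 30.8 CPM in pBIC10 and 63.6 CPM in pBIC. The Tcf7-bearing cells were lower within each library, by -1.46 in pBIC10 and -0.62 in pBIC on the log2 scale, both called.

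Il12rb2 (ENSMUSG00000018341), the chain that IL-12 binding adds to IL-12Rβ1, went the other way in T cells. CD8 T cells had 7.52 CPM (6.51 to 8.65; 196 UMIs) in pBIC10 and 2.65 CPM (2.22 to 3.13; 136 UMIs) in pBIC, a log2 ratio of 1.51 (1.18 to 1.83). CD4 T cells had 10.6 CPM (21 UMIs) in pBIC10 and 4.58 CPM (30 UMIs, 10 of them in 1 cell) in pBIC, a log2 ratio of 1.21 (0.33 to 2.06). A UMI was found in 5.31% of pBIC10 and 1.64% of pBIC CD8 T cells, against 1.43% of pBIC10 and 0.915% of pBIC erythroid cells. So the 2 chains of the IL-12 receptor were on opposite sides in both T cell classes, and they were found together in 60 pBIC10 CD8 T cells (2.31%) and 34 pBIC CD8 T cells (0.582%).

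Il12rb2 fell with the size of the T cell clonotype within each library. The pBIC10 CD8 T cells were 780 in clonotypes of 1 cell, 1002 in clonotypes of 2 to 9 cells and 816 in larger ones, and the pBIC CD8 T cells 749, 1383 and 3713, which leaves 1 cell of each library in none of these. In clonotypes of 1 cell Il12rb2 was at 12.7 CPM in pBIC10 and 6.0 CPM in pBIC (log2 ratio 1.08, 0.53 to 1.66). In clonotypes of 2 to 9 cells it was at 6.94 CPM in pBIC10 and 2.94 CPM in pBIC (1.24, 0.63 to 1.86). In clonotypes of 10 or more cells it was at 2.33 CPM in pBIC10 and 1.86 CPM in pBIC (0.32, -0.55 to 1.11), not called. The libraries thus differed among the small clonotypes and not by the call among the large ones, and a test of that contrast was not made. Large over 1-cell clonotypes gave log2 ratios of -2.45 (-3.28 to -1.70) within pBIC10 and -1.69 (-2.30 to -1.06) within pBIC.

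Il12rb1 and Il27ra differed less than 1.5-fold between large and 1-cell clonotypes. Il12rb1 in clonotypes of 1 cell was at 23.6 CPM in pBIC10 and 45.6 CPM in pBIC, and in those of 10 or more cells at 33.2 CPM in pBIC10 and 63.3 CPM in pBIC. Il27ra was at 38.4 CPM in pBIC10 and 168 CPM in pBIC clonotypes of 1 cell, and at 44.9 CPM in pBIC10 and 158 CPM in pBIC clonotypes of 10 or more cells.

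**Figure D5:**
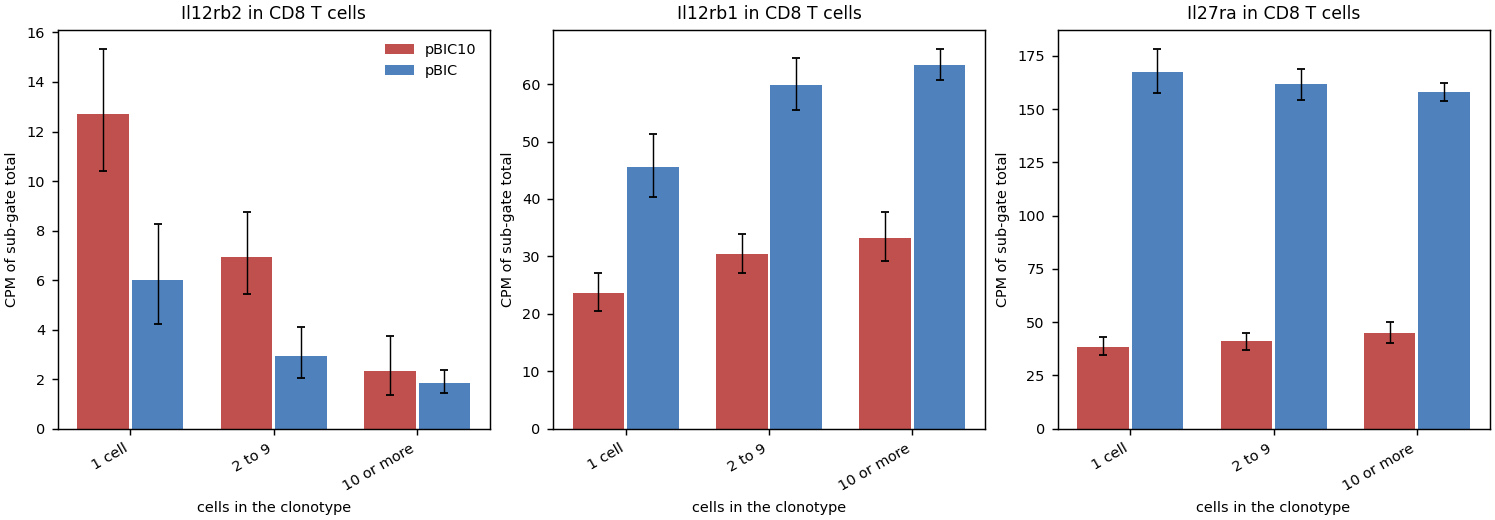
Il12rb2, Il12rb1 and Il27ra in CD8 T cells by the number of cells in the clonotype, as CPM of the summed UMIs with 95% Poisson intervals, pBIC10 in red and pBIC in blue. Il12rb2 is lower in larger clonotypes in both libraries (12.7 to 2.33 CPM across the pBIC10 bars), and Il27ra stays near 160 CPM in pBIC and near 41 CPM in pBIC10.

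Outside T cells, Il12rb2 was highest in the dendritic gate and then in macrophages among the compared classes. The dendritic gate had 7.66 CPM in pBIC10 and 13.8 CPM in pBIC, a log2 ratio of -0.85 (-1.51 to -0.23), and -1.0 without cells holding Cd3e, Ncr1 or Klrb1c. Macrophages had 4.79 CPM in pBIC10 and 5.26 CPM in pBIC, not called. B cells had 0.189 CPM (9 UMIs) in pBIC10 and 0.812 CPM (40 UMIs) in pBIC, called lower (log2 ratio -2.11), but neither level was above the erythroid gate, and with the B gate set at 10 UMIs the log2 ratio was -0.61 and not called. In pBIC the order was the dendritic gate, then macrophages, CD4 T cells and CD8 T cells, and of these the intervals of macrophages and CD4 T cells overlapped, as did those of CD4 and CD8 T cells. In pBIC10 it was CD4 T cells, the dendritic gate and CD8 T cells, whose intervals overlapped, and then macrophages, whose interval overlapped that of the dendritic gate.

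Il27ra (ENSMUSG00000005465), the receptor chain specific to IL-27, was highest in T cells among the compared classes of both libraries. It was called lower in pBIC10 in all 5 compared classes, and its levels outside T cells are given below beside the erythroid gate. CD8 T cells had 41.3 CPM (38.9 to 43.8; 1076 UMIs) in pBIC10 and 160.0 CPM (157 to 163; 8216 UMIs) in pBIC, a log2 ratio of -1.95 (-2.05 to -1.86). CD4 T cells had 46.4 CPM (37.4 to 56.9) in pBIC10 and 197 CPM (186 to 208) in pBIC, a log2 ratio of -2.08 (-2.41 to -1.78). A UMI was found in 30.9% of pBIC10 and 69.0% of pBIC CD8 T cells, and at 2000 UMIs per cell in 8.81% of pBIC10 and 31.1% of pBIC CD8 T cells, against 2.14% of pBIC10 and 7.01% of pBIC erythroid cells unthinned. It was called lower both in dividing CD8 T cells (31.7 CPM in pBIC10 and 132 CPM in pBIC) and in the others (48.9 CPM in pBIC10 and 190 CPM in pBIC). The intervals of CD4 and CD8 T cells overlapped in pBIC10 and did not in pBIC, and the dendritic gate followed in both, at 10.8 CPM in pBIC10 and 20.4 CPM in pBIC.

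The erythroid gate also held less Il27ra in pBIC10, at 1.43 CPM (4 UMIs) in pBIC10 and 6.92 CPM (40 UMIs) in pBIC, a log2 ratio of -2.28 (-4.22 to -0.81). Against it, pBIC10 B cells (0.713 CPM) and pBIC10 macrophages (0.992 CPM) were no higher, nor were pBIC macrophages (8.82 CPM), so those class values are read as background. B cells in pBIC had 11.0 CPM, above the erythroid gate by a log2 ratio of 0.66 (0.20 to 1.17). T cell markers Cd3e, Cd3g and Trac summed to 81.4 CPM in pBIC10 and 120 CPM in pBIC B cells. In B cells with none of those UMIs Il27ra was at 0.764 CPM in pBIC10 and 7.18 CPM in pBIC (log2 ratio -3.23), and in B cells with under 10 UMIs of the dominant light chain V segment at 5.56 CPM in pBIC10 and 36.5 CPM in pBIC. In B cells with 10 or more such UMIs it was at 0.443 CPM in pBIC10 and 7.77 CPM in pBIC. That pBIC level, and the 7.18 CPM (6.09 to 8.42) without T cell marker UMIs, lay within the interval of the pBIC erythroid gate (4.94 to 9.42). Neither can thus be told from free RNA. Within the dendritic gate it was at 31.8 CPM in pBIC10 and 68.9 CPM in pBIC cells that held Cd3e, Ncr1 or Klrb1c, and at 2.57 CPM in pBIC10 and 4.42 CPM in pBIC cells without these (log2 ratio -0.78, -2.26 to 0.51, not called).

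Il6st, which encodes gp130, the partner chain of IL-27Rα, was at 8.94 CPM in pBIC10 and 8.28 CPM in pBIC CD8 T cells (log2 ratio 0.11, not called). Il27ra and Il6st were found together in 69 pBIC10 (2.65%) and 282 pBIC (4.82%) CD8 T cells. Of the Il6st-bearing CD8 T cells, 31.4% in pBIC10 and 70.9% in pBIC also held Il27ra. These shares were close to those of all CD8 T cells, 30.9% in pBIC10 and 69.0% in pBIC. In macrophages Il6st was at 15.2 CPM in pBIC10 and 37.2 CPM in pBIC (log2 ratio -1.29, -1.54 to -1.03). Il23r, the partner of IL-12Rβ1 in the IL-23 receptor, held between 0 and 6 UMIs per class and library, and no level is read from it.

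The signal transducers of these receptors, the JAK kinases and STATs, were mostly not called in T cells, and those called in macrophages were lower in pBIC10. Lists are described by counts and medians, to be read against the all-gene medians and the shares of all genes called, and counts with TMM scaling are given where they differ from those printed. Of 9 genes, 0 were called higher and 1 lower in CD8 T cells (Jak1, at 223 CPM in pBIC10 and 390 CPM in pBIC), with a median log2 ratio of -0.35. Of all genes in CD8 T cells 14.8% were called higher and 21.0% lower. In macrophages 0 were called higher and 7 lower, with a median of -0.84, and 4 were lower with TMM scaling. Of all genes in macrophages 6.43% were called higher and 26.7% lower. Stat4, which IL-12 activates, was at 77.7 CPM in pBIC10 and 99.1 CPM in pBIC CD8 T cells, not called, and was higher in B cells, at 12.1 CPM in pBIC10 and 4.06 CPM in pBIC. In B cells 1 of 9 was called higher and 3 lower (Tyk2, Stat5b and Stat5a), and Stat5a was not called with TMM scaling. Of all genes in B cells 16.3% were called higher and 39.5% lower.

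Feedback genes called in CD8 T cells were more often lower than higher in pBIC10. Of 8, 1 was called higher and 6 lower, with a median log2 ratio of -0.76, and 4 were lower with TMM scaling. Of all genes in this class 14.8% were called higher and 21.0% lower, without TMM scaling. Socs3, a suppressor of gp130 signals, was at 36 CPM in pBIC10 and 114 CPM in pBIC (log2 ratio -1.67), and Cish, a suppressor induced by cytokine signals, at 40.4 CPM in pBIC10 and 104 CPM in pBIC (-1.36). Socs2 was higher, at 5.57 CPM in pBIC10 and 1.03 CPM in pBIC (2.43). In B cells 1 of 8 was called higher (Socs2, at 7.63 CPM in pBIC10 and 0.386 CPM in pBIC) and 3 lower, and in macrophages 2 were called higher and 2 lower, or 3 higher and 1 lower with TMM scaling. The shares of all genes were 16.3% higher and 39.5% lower in B cells, and 6.43% higher and 26.7% lower in macrophages.

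Of 14 genes known to respond to IL-12, 2 were called higher and 5 lower in pBIC10 CD8 T cells, with a median log2 ratio of -0.57. Of all genes in this class 14.8% were called higher and 21.0% lower. Gzmb, the cytotoxic protease granzyme B, was at 1095 CPM in pBIC10 and 3055 CPM in pBIC (log2 ratio -1.48), and Ifng, interferon gamma, at 178 CPM in pBIC10 and 457 CPM in pBIC (-1.36). Il2ra, the IL-2 receptor alpha chain, was at 54.2 CPM in pBIC10 and 8.51 CPM in pBIC (2.67). In the dendritic gate 8 of 13 were called higher and 1 lower, led by Il2ra and by Prf1, the pore-forming perforin of cytotoxic cells, at 142 CPM in pBIC10 and 35.4 CPM in pBIC. Of all genes in the dendritic gate 7.41% were called higher and 20.0% lower. The T cell markers of that gate summed to 708 CPM in pBIC10 and 525 CPM in pBIC, and their part in the result was not tested. In B cells 4 of 14 were called higher and 7 lower, where 16.3% of all genes were called higher and 39.5% lower. The higher ones were led by the chemokine receptor Cxcr3, at 264 CPM in pBIC10 and 3.92 CPM in pBIC (log2 ratio 6.07). In macrophages 2 of 12 were called higher and 5 lower, Ifng and Gzmb with the lowest ratios of these 5, where 6.43% of all genes were called higher and 26.7% lower. T cell markers in the macrophage gate summed to 56.8 CPM in pBIC10 and 220 CPM in pBIC, and their part in the result was not tested.

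Of 14 genes known to respond to IL-27, 1 was called higher and 4 lower in pBIC10 CD8 T cells, with a median log2 ratio of -0.27. With 21.0% of all genes called lower there, no direction is read for the list. Maf, a transcription factor for interleukin 10, was at 64.6 CPM in pBIC10 and 203 CPM in pBIC (-1.65), and Irf1 at 100.1 CPM in pBIC10 and 283 CPM in pBIC (-1.50), while Prdm1 was higher (0.61). In B cells 1 of 14 was called higher (Batf, at 195 CPM in pBIC10 and 29.8 CPM in pBIC) and 10 lower, with a median of -1.13, where 39.5% of all genes were called lower, and TMM scaling gave 2 higher and 7 lower. In macrophages 0 were called higher and 7 lower, with a median of -0.67, where 26.7% of all genes were called lower, and TMM scaling gave 3 higher and 5 lower. In CD4 T cells 1 of 14 was called higher and 4 lower, with a median of -0.40, where 17.1% of all genes were called lower, and TMM scaling gave 2 higher and 4 lower. In the dendritic gate 2 of 13 were called higher and 1 lower, with a median of -0.17, where 7.41% of all genes were called higher and 20.0% lower, and TMM scaling gave 5 higher and 1 lower, with a median of 0.02. Of 8 genes known from IL-23 and type 17 responses, 2 to 4 had enough UMIs in a class. Csf2, which encodes GM-CSF, was called higher in CD8 T cells (5.03 CPM in pBIC10 and 0.370 CPM in pBIC), and Rora was called lower, but not with TMM scaling.

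Genes known to induce the family, such as Toll-like receptors and interferon regulatory factors, split in B cells. Of 20, 3 were called higher and 7 lower in pBIC10 B cells, where 16.3% of all genes were called higher and 39.5% lower. The median log2 ratio of the list was -0.18. TMM scaling gave 4 higher and 4 lower, with a median of 0.18, so no direction is read for the list. Tlr7, an RNA sensor, was at 109 CPM in pBIC10 and 19.9 CPM in pBIC (2.45), and Irf8, a transcription factor of B and myeloid cells, at 724 CPM in pBIC10 and 150 CPM in pBIC (2.27). Irf1, an interferon-induced factor, was at 61.0 CPM in pBIC10 and 228 CPM in pBIC (-1.90). In macrophages 1 of 19 was called higher (Irf5, at 271 CPM in pBIC10 and 178 CPM in pBIC) and 9 lower, or 4 lower with TMM scaling. Of all genes there 6.43% were called higher and 26.7% lower. Irf7 was at 119 CPM in pBIC10 and 331 CPM in pBIC macrophages, and Irf1 at 176 CPM in pBIC10 and 384 CPM in pBIC. Of 19 in CD8 T cells, 4 were called higher, led by Batf3 (32.8 CPM in pBIC10 and 2.43 CPM in pBIC), and 5 lower, or 4 lower with TMM scaling. The shares of all genes in CD8 T cells were 14.8% higher and 21.0% lower.

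Likeness of pattern was measured as Pearson's r of log2(CPM + 1) over 15 class-by-library levels, among 11851 genes, and is a description in which levels of a class share their gate. Ebi3 was most like Tlr7 (r = 0.938), B4galt6 (0.918) and Ckap4 (0.894). Il12a was most like Nacc2 (0.939), Zc3h12c (0.917) and Adamtsl4 (0.914), and Il27 most like Rap2c (0.896), Bmx (0.896) and Dnah12 (0.895). Il12b was most like Nudt17 (0.960) and Slc41a2 (0.884), on levels that few cells set. Among the receptors, Il27ra was most like Apol7e (0.991), Zap70 (0.980) and Baiap3 (0.980), Il12rb1 most like Gimap1os (0.983), Dennd2d (0.982) and Trabd (0.973), and Il12rb2 most like Srgap3 (0.912), Ice1 (0.880) and Gstk1 (0.878).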

How the data were processed

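Raw counts of unique molecular identifiers, neither scaled nor corrected, were deposited by the authors for each gene and barcode, from Cell Ranger; the version is 3.0.1 and the build GRCm39 per the submitters' processing notes, and 5.0.1 per the file headers of the count tables. The authors' deposited T cell receptor tables gave chains and, per clonotype, its cells and their proportion of all cells with a clonotype. The sources used here do not say whether barcodes were filtered beyond that. Barcodes with fewer than 200 genes, or with mitochondrial UMIs at 10% or more, were removed, and doublets were called with Scrublet in scanpy 1.11.5. Its automatic threshold called 0 doublets in pBIC, so the pBIC10 threshold of 0.310 was applied to both, removing 367 (2.50%) pBIC10 and 440 (2.46%) pBIC barcodes. Counts were summed per gate and library and divided by the gate's total (CPM), with exact Poisson intervals; ratios had exact binomial intervals and shares Clopper-Pearson intervals. A count of 0 was bounded at 3 counts. The calls were tested on simulated data with known changes. Python 3.11.15, numpy 2.4.6, scipy 1.17.1, pandas 2.3.3, R 4.3.3 and edgeR 4.0.16 (TMM factors only) were used.

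The members, gates and gene lists were chosen with earlier results of these data known. All 8 members were named; of each list, up to 3 genes per direction were eligible for naming, by the interval bound nearest to no difference, and Il10, Il6st, Il23r and Stat4 were named for their place in the pathways. Likeness was ranked among genes with at least 100 UMIs, and up to 3 of the highest were named. Some genes that these rules select are not reported here. The CD4 T gate was completed here with the absence of Cd8a and Cd8b1. Alternatives tried were the doublet calls, the gates as written with overlapping cells, TMM scaling, mitochondrial and UMI limits, a stricter B gate, the dominant light chain, the largest clonotype, the UMI minimum, means of per-cell CPM and thinning; those chosen after seeing the data were shared barcodes, a dendritic gate without T and NK markers, subtraction of the erythroid level, stricter Ig-low gates and TMM scaling of the gene lists. Promoters were matched by symbol for 4 of the 8 members.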

Additional observations from a re-analysis of the deposited data

Results flagged for a closer look

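Cells that met no gate, 4692 in pBIC10 and 5172 in pBIC, held the members named here above the erythroid level, in the libraries given. Ebi3 was at 65.0 CPM there in pBIC10 and 13.8 CPM in pBIC, and Il27ra at 16.7 CPM in pBIC10 and 145 CPM in pBIC. Il12rb1 was at 12.3 CPM in pBIC10 and 50.3 CPM in pBIC, Il12a at 3.73 CPM in pBIC10 and 4.52 CPM in pBIC, and Il27 at 2.12 CPM in pBIC10 and 1.08 CPM in pBIC. In pBIC, Il12rb2 was at 6.63 CPM and Il12b at 3.44 CPM in these cells, the Il12b level resting on 70 UMIs, 49 of them in 1 cell. Among these cells, those with no receptor beta chain but a Cd3e UMI (831 in pBIC10 and 2168 in pBIC) had Ebi3 at 35.1 CPM in pBIC10 and 4.99 CPM in pBIC, and Il27ra at 38.1 CPM in pBIC10 and 168 CPM in pBIC.

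A pair of members had called differences between the libraries of opposite sign in different classes. Il12rb2 had log2 ratios, pBIC10 over pBIC, of 1.51 in CD8 T cells and 1.21 in CD4 T cells but -0.85 in the dendritic gate and -2.11 in B cells, the B cell value being at the erythroid level. Il12b had 0.99 in the dendritic gate and -2.78 in CD8 T cells, where the value was that of 1 cell in each library. The difference between the classes was not tested.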

How the results depend on the processing

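No paired analysis was possible because each genotype had 1 library, and for the same reason no replicate could be left out. Over single-gene ratios and shares, 297 of 350 alternative values stayed, 52 moved and 1 reversed. Of the 302 log2 ratios alone, 274 stayed, 27 moved and 1 reversed. A ratio stayed if it lay within its main interval, and a difference in shares if it lay within a margin set by the wider interval. Those that stayed include the 26 ratios without the UMI minimum, which equal the main ones by construction. A ratio counted as reversed only where its main value was called. The reversal was Il12b in the dendritic gate, at -0.51 with cells of several gates kept against 0.99. Il27ra in Ig-low over B cells, which changed sign with those cells kept but was not called in the main comparison, counted as moved. The count of members called, though not always of the same members, was within 1.5 times under the alternatives run, except in the dendritic gate, where 4 became 2 with cells of several gates kept and 2 without cells holding Cd3e, Ncr1 or Klrb1c; Ebi3 (0.27) and Il27ra (-0.78) there were no longer called. Thinning to 2000 UMIs moved 17 of 24 differences in shares. TMM scaling turned the sign of uncalled ratios of Il12rb1 in B cells (0.15) and of Ebi3 (0.03), Il12a (0.04) and Il12rb2 (0.13) in macrophages. In B cells it gave 1.68 for Ebi3 and -2.64 for Il12a. Il12b rested on few cells and Il23a and Il23r on few UMIs, and levels near the erythroid gate cannot be told from free RNA.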

Other observations

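Il12b UMIs were gathered in few cells. Over all kept cells, 25 pBIC10 cells held 90 UMIs and 19 pBIC cells held 204 UMIs. Cells with at least 3 Il12b UMIs were 7 in pBIC10, with 76.7% of the library's Il12b UMIs, and 10 in pBIC, with 94.6%. Fscn1, a gene of mature dendritic cells, was present in 6 of these 7 pBIC10 cells and 7 of these 10 pBIC cells, and Ccr7, the receptor that guides them to lymphoid tissue, in 6 of the pBIC10 and 6 of the pBIC cells.

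Il27 was present in 0 of these 7 pBIC10 cells and in 3 of these 10 pBIC cells. The pBIC cell gated as an NK cell held 29 Il12b, 11 Il27, 78 Ccr7 and 168 Fscn1 UMIs, and the pBIC cell gated as a CD8 T cell held 27 Il12b, 11 Il27, 7 Ccr7 and 22 Fscn1 UMIs. Ebi3 was present in 2 of the 7 pBIC10 and 4 of the 10 pBIC cells. Mature dendritic cells, the sub-gate with Ccr7 and Fscn1, were 17 in pBIC10 and 19 in pBIC, and had Il12b at 237 CPM in pBIC10 and 266 CPM in pBIC. The whole dendritic gate held Il12b in only 6 pBIC10 and 4 pBIC cells, so few cells set these levels. No comparison of the libraries is read from them.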
